A study of Mus musculus with 79 samples.

Results

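Acyl-CoA thioesterases and long-chain acyl-CoA synthetases are opposing enzymes of fatty acid metabolism, and 9 of them were examined in mouse quadriceps: the thioesterases Acot1, Acot2, Acot7 and Acot9 and the synthetases Acsl1, Acsl3, Acsl4, Acsl5 and Acsl6. They were taken by gene symbol from the 22335 named genes of the array table, and each of the 9 was read by 1 probeset of the 35556. Expression had been measured on 79 Affymetrix Mouse Gene 1.0 ST arrays in males of the BXD family, inbred strains bred from C57BL/6J and DBA/2J, together with both parents. The chow diet (CD, Harlan 2018) groups gave 42 arrays and the high fat diet (HFD, Harlan 06414) groups gave 37, with the HFD started at 8 weeks of age. All animals were fasted overnight and taken at 29 weeks, and each array carried pooled RNA of about 5 animals of a strain on a diet, so that differences between animals of a strain were not measured. Both diets were arrayed for 37 of the 42 strains, and the other 5 were arrayed on CD only.

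Long-chain fatty acids enter metabolism only after a synthetase has joined them to coenzyme A. The acyl-CoA can then be carried into mitochondria and oxidised, or be built into triglyceride and phospholipid. Thioesterases split acyl-CoA back into free fatty acid and coenzyme A, each in its own compartment of the cell. Several genes of both families are known targets of the peroxisome proliferator-activated receptors (PPARs), nuclear receptors that bind fatty acids and are active in fasted muscle. Muscle is a main site of fatty acid oxidation, and Acsl1 is the synthetase best known for feeding that pathway there.

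The deposited values were scores with a mean of 8.0 and an SD of 2.0 on every array. They behaved as logarithms of an unstated base, so that differences are given in score units and any fold is nominal, computed as if 1 unit were a doubling. Levels of different probesets cannot be ranked against each other, and only the same gene is compared between arrays. Muscle markers averaged between 14.5 and 14.8 units on the arrays of both diets, which fits the labelled tissue. The titles gave 2 array batches, also separate in RNA extraction, and the batch term reached an unadjusted p below 0.05 in 0 probesets (limma, smallest p 0.266). Whether the scores had been corrected for batch before deposit was not given in the sources used here, so that this value does not measure how far the batches differed. A gene is said to be called where its Benjamini-Hochberg adjusted p over all 35556 probesets was below 0.05.

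The diet comparison asked whether the enzymes that make and split acyl-CoA changed in muscle of mice kept on fat. Of the 9 members, 5 rose in HFD (Acsl5, Acot1, Acsl3, Acsl1 and Acot9) and 0 fell, while 4 were not called. The background was high, since 38.1% of all probesets were called, 18.9% as higher and 19.3% as lower in HFD. This split moved with the scaling, from 6703 higher and 6848 lower to 8199 and 5758 with each array centred on its median. The median difference of the members was 0.16 units, beside -0.00066 units over all probesets, and 8 of the 9 differences were above 0. Both families contributed, with 3 of 5 synthetases and 2 of 4 thioesterases called higher.

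Acsl5, a synthetase of mitochondria and endoplasmic reticulum best known from intestine and liver, changed most. Its CD arrays ran from 7.11 (BXD83) through a median of 7.49 to 7.75 (BXD56), and its HFD arrays from 7.48 (BXD63) through 7.74 to 8.07 (BXD79). The groups overlapped, but 36 of 37 HFD arrays lay above the CD median and 16 lay above the highest CD array. The mean rose from 7.47 ± 0.16 (SD, n = 42) to 7.75 ± 0.15 (SD, n = 37), which is 0.28 units (SE 0.035) or a nominal 1.22-fold, with a limma adjusted p of 3.7e-10. Acsl5 was higher in HFD in 35 of 37 strains, and it was called in batch 1 alone and in batch 2 alone. Its difference exceeded that of 99.0% of the 3556 probesets in its decile of brightness, of which 15.8% were called higher. In tissue RNA, a change in the number of cells that carry a transcript cannot be told apart from a change of its level in each cell.

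Acsl1, the principal long-chain synthetase of oxidative tissues, was the next most certain. Its CD arrays ran from 12.40 (C57BL/6J) through 12.99 to 13.40 (BXD97), and its HFD arrays from 12.82 (BXD49) through 13.15 to 13.53 (BXD71). The distributions overlapped widely, with 2 HFD arrays above the highest CD array. The rise of 0.16 units (SE 0.043) was a nominal 1.12-fold (adjusted p 0.0014, limma), and 31 of 37 strains were higher in HFD. In batch 1 alone Acsl1 was called, and in batch 2 alone it was not (0.14 units, adjusted p 0.081).

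Acsl3, which acts at the endoplasmic reticulum and at growing lipid droplets, ran from 8.03 (BXD44) through 8.60 to 9.28 (BXD95) on CD. On HFD it ran from 8.20 (BXD44) through 8.82 to 9.25 (BXD48), so that no HFD array exceeded the highest CD array. The same strain, BXD44, was lowest on both diets. The mean rose by 0.17 units with an SE of 0.060 (adjusted p 0.020, limma), upward in 29 of 37 strains. The difference was similar in size in each batch, 0.15 and 0.18 units, but passed in neither alone.

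Acsl4, which prefers arachidonate and supplies polyunsaturated acyl chains to phospholipids, was not called in this fit. It averaged 9.99 ± 0.18 units (SD, n = 42) on CD and 10.07 ± 0.19 units (SD, n = 37) on HFD, or 0.09 units more with an SE of 0.041 (adjusted p 0.087, limma). HFD was above CD in 27 of 37 strains. Among the 37 strains with both diets alone it was not called without a strain term (0.09 units, adjusted p 0.064), and with strain as a replicate block, which compares each strain with itself, it was (0.09 units, adjusted p 0.013). Acsl6, a synthetase known from brain for its use of docosahexaenoate, averaged 9.49 units on both diets, with a 95% interval of the difference from -0.06 to 0.07 units.

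Acot1, the cytosolic long-chain thioesterase and a known PPAR target, had the widest spread of strain responses among the called members. On CD it ran from 6.90 (C57BL/6J) through 7.59 to 8.11 (BXD51), and on HFD from 7.17 (BXD63) through 7.81 to 8.61 (BXD44). Of the HFD arrays 7 lay above every CD array, and 5 CD arrays lay below every HFD array. The rise was 0.22 units with an SE of 0.075 (adjusted p 0.014, limma), a nominal 1.16-fold, and 24 of 37 strains showed it. In the batches alone Acot1 differed by 0.23 and 0.21 units and was called in neither.

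Acot2, the thioesterase of the mitochondrial matrix, ran from 11.89 (C57BL/6J) through 12.996 to 13.41 (BXD44) on CD, and from 12.61 (BXD70) through 13.03 to 13.73 (BXD71) on HFD. The medians lay close together and the CD group held a tail of low arrays, of which 7 were below every HFD array. The difference, 0.16 units with an SE of 0.073, was not called (adjusted p 0.067, limma), and 23 of 37 strains were above 0. Leaving out BXD70 or BXD75 brought it past the threshold (adjusted p 0.047 and 0.045), as did centring each array on its median (0.044).

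Acot9, a mitochondrial thioesterase, went from 9.31 ± 0.17 (SD, n = 42) to 9.41 ± 0.17 (SD, n = 37), upward in 29 of 37 strains. The rise was 0.10 units with an SE of 0.038 (adjusted p 0.025, limma), 0.09 in batch 1 and 0.11 in batch 2, and was called in neither batch alone. The call was lost when the arrays were quantile normalized again (0.08 units, adjusted p 0.059). Acot7, a cytosolic thioesterase most abundant in brain, averaged 9.52 units on CD and 9.49 on HFD, with a 95% interval of the difference from -0.09 to 0.02 units.

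**Figure D1:**
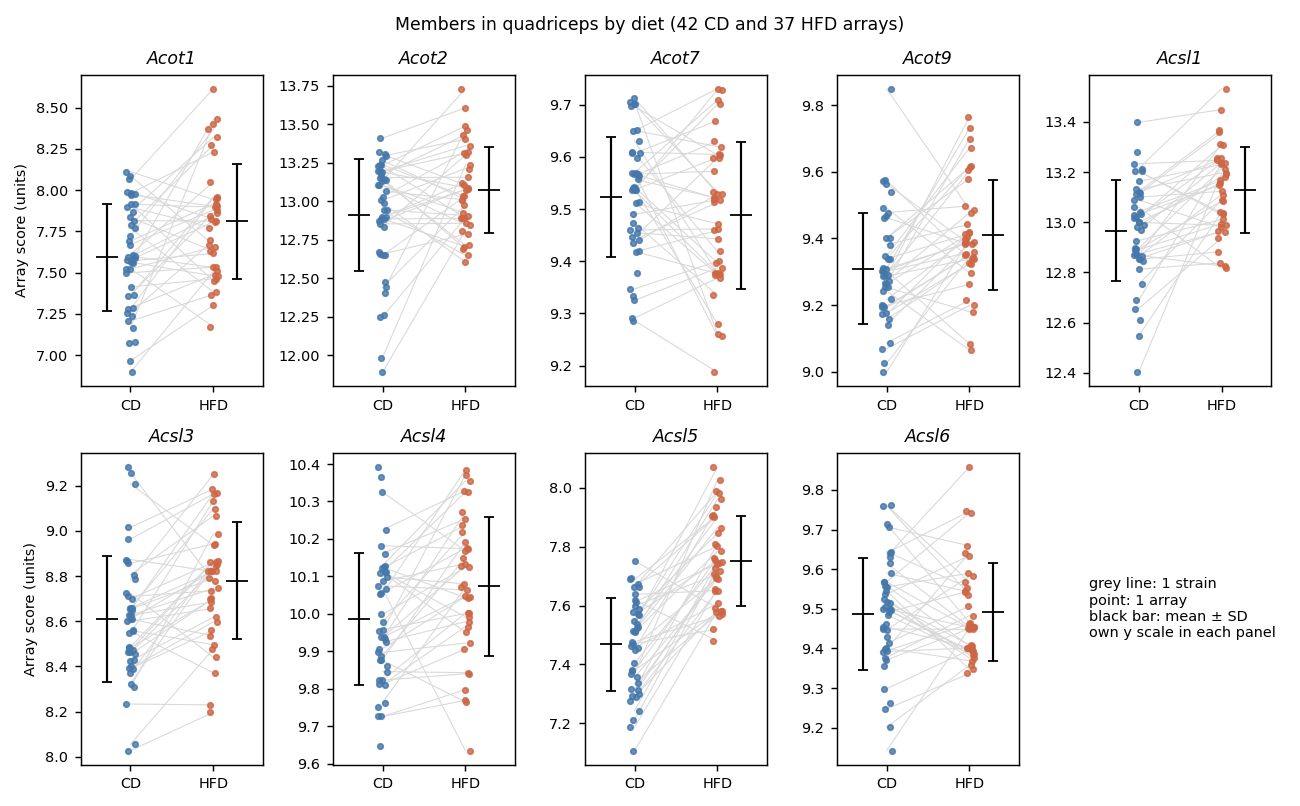
Array scores (y axis, score units, a separate scale in each panel) of the 9 members on CD (blue, n = 42) and HFD (red, n = 37). Each point is an array, grey lines join the arrays of a strain, and black bars give the mean ± SD. Acsl5 separates the diets most, with 16 HFD arrays above every CD array, against 7 for Acot1 and 5 for Acot2.

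Between 4 and 9 of the 9 members, called or not, were higher in HFD in every one of the 37 strains, and at least 7 were higher in 16 strains. These counts rest on 1 array per strain and diet, and whether strains differed in them was not tested. Acot1 and Acot2 had the widest range of HFD minus CD differences. Acot1 ran from -0.47 units in BXD100 to 1.24 units in BXD69, and Acot2 from -0.46 in BXD75 to 1.25 in BXD68. The SD of the strain differences was 0.38 units for Acot1 and 0.40 for Acot2, against 0.14 for Acot7 and for Acsl6.

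The parental strain C57BL/6J had the largest Acsl1 response, at 0.79 units, and the most negative Acsl3 response, at -0.48 units. Its CD array was the lowest of 42 for Acot1, Acot2 and Acsl1, and next to the highest for Acsl3. The same array was also the lowest of 42 for the PPAR targets Pdk4, Angptl4, Cd36 and Fabp3, while Ucp3 and Cpt1b ranked 2nd and Plin2 12th. This CD array ranked 2nd to 11th from the lowest in each of the 7 slow fibre markers, and was the highest in the fast fibre genes Actn3, Tnni2 and Mybpc2. Of the other fast fibre genes, Pvalb ranked 39th and Myh4 26th of 42 from the lowest. On HFD the C57BL/6J array ranked 9th of 37 for Acot1, 7th for Acot2 and 23rd for Acsl1, and 31st to 36th in each of the 7 slow fibre markers. On CD the C57BL/6J array was also the lowest of 42 for the endothelial markers Pecam1 and Cdh5, 2nd for Kdr and 3rd for Tek. On HFD these ranked 15th, 12th, 17th and 23rd of 37 in the same order. The part of fibre and cell content in these ranks was not tested. Without C57BL/6J, Acsl1 was still called (adjusted p 0.0030).

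BXD63 was among the strains whose Acsl5 and Acot1 went down. Its Acsl5 fell by 0.14 units and its Acot1 fell by 0.35 units from CD to HFD, and its HFD array was the lowest of 37 for both genes. The same array was also the lowest for the endothelial markers Pecam1 and Cdh5, next to the lowest for Kdr, and ranked 32nd to 36th from the lowest in the 7 slow fibre markers. The part of cell and fibre content in its values was not tested. BXD56 was the other strain with a lower Acsl5, which fell by 0.16 units, and Acot1 was lower on HFD in 13 of 37 strains. With BXD63 left out, Acot1 had an adjusted p of 0.0084 and Acsl5 one of 9.1e-11.

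**Figure D2:**
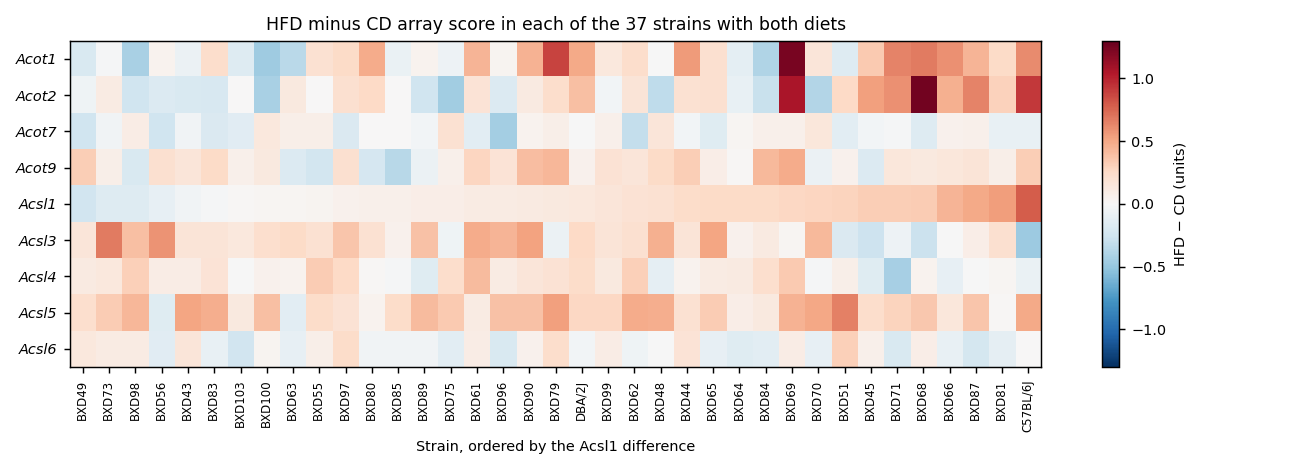
HFD minus CD difference in score units (colour, red for higher in HFD) of each member (rows) in each of the 37 strains with both diets (columns, ordered by the Acsl1 difference). The Acsl5 row is red in 35 of 37 strains, and the Acot1 and Acot2 rows hold the widest range, from -0.47 to 1.25 units.

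Markers of other cell types also moved with diet, where 18.9% of all probesets were called higher and 19.3% lower. Adipocyte markers averaged between 9.27 and 10.96 units on CD arrays and between 9.43 and 11.43 on HFD arrays, and 5 of 7 rose (among them Adipoq by 0.54 and Lep by 1.58 units) while Cfd fell. Macrophage markers averaged between 8.39 and 9.20 units on CD and between 8.51 and 9.56 on HFD, and 4 of 6 rose. Endothelial markers averaged between 9.78 and 10.58 units on CD and between 10.10 and 10.68 on HFD, and 3 of 4 rose. Of the slow fibre markers 0 of 7 were called, although their average ran from 8.54 to 11.18 units among CD arrays and from 8.32 to 10.98 among HFD arrays.

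Over the 79 arrays, with diet and batch means removed, Acsl5 correlated with the macrophage marker mean at r = 0.60, with the endothelial mean at 0.48 and with the adipocyte mean at 0.41, and with the skeletal muscle and fast fibre means at -0.39 each. Acot9 correlated with the macrophage mean at 0.30 and with the skeletal muscle mean at -0.39, and Acsl4 with the macrophage mean at 0.34. With the slow fibre mean Acsl1 correlated at 0.54, Acot1 at 0.30 and Acot2 at 0.27, and Acsl3 and Acsl4 at -0.26 and -0.39. With the fast fibre mean these values were -0.49, -0.51, -0.36, 0.29 and 0.09 in the same order. Acsl1 correlated with the Schwann cell mean at 0.50, and Acsl4 with it at -0.40 and with the red blood cell mean at -0.44. These are descriptions over arrays that share a strain between diets. With the adipocyte mean as a covariate the Acsl5 difference was 0.22 units (limma adjusted p 2.1e-06), and with the macrophage mean it was 0.20 units (adjusted p 3.1e-07). Acsl1 and Acot1 were also called under either covariate. Acot9 was called under neither, and its difference went from 0.10 units to 0.08 and 0.06 (adjusted p 0.16 and 0.28). Acsl3 missed the threshold with the macrophage mean (adjusted p 0.051) at a difference of 0.16 units against 0.17 without it. Acot2 passed the threshold there (0.22 units, adjusted p 0.025), and the difference of Acsl4, not called without the covariate, was 0.03 units (adjusted p 0.61).

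Most genes in the list of acyl-CoA users also rose. The name is a loose one, since the list also holds a fatty acid-binding protein and a carnitine carrier. Of the 11 genes of this list 10 were called higher and 0 lower, beside 18.9% and 19.3% of all probesets. Their median difference was 0.28 units. The list was chosen with earlier results of these data known, so that its count is a description. Fabp3, the muscle fatty acid-binding protein, rose by 0.42 units (limma adjusted p 4.9e-08) and Cpt2, the inner carnitine palmitoyltransferase, by 0.36 units (1.8e-09). Dbi, the acyl-CoA-binding protein, rose by 0.35 units in 36 of 37 strains. Acadl and Acadvl, long-chain acyl-CoA dehydrogenases, rose by 0.33 and 0.22 units, and the carnitine carrier Slc25a20 by 0.28 units. The outer carnitine palmitoyltransferases Cpt1a and Cpt1b rose by 0.14 and 0.11 units. The triglyceride-forming enzymes Dgat2 and Dgat1 rose by 0.36 and 0.11 units, while Gpam, which starts glycerolipid synthesis, was not called (0.08 units, adjusted p 0.059).

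Known PPAR targets did not all move in the same direction. Of 8 genes 5 were called higher and 1 lower, beside 18.9% and 19.3% of all probesets. Fabp3 and Cpt1b stand in the list of acyl-CoA users as well. Angptl4, an inhibitor of lipoprotein lipase, rose by 0.54 units, Cd36, a fatty acid uptake protein, by 0.27 and Plin2, a lipid droplet coat protein, by 0.21. Ucp3, the mitochondrial uncoupling protein of muscle, fell by 0.24 units (limma adjusted p 0.026). Pdk4, the kinase that restrains pyruvate oxidation, differed by -0.04 units and was not called (adjusted p 0.57).

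The remaining relatives of the members split. Among 11 other thioesterases 5 were called higher, 3 lower and 3 not, beside 18.9% called higher and 19.3% lower over all probesets. Of the peroxisomal enzymes, Acot5, Acot6, Acot4 and Acot8 rose by 0.26, 0.16, 0.13 and 0.08 units and Acot3 fell by 0.13 units. Acot10, a close relative of Acot9, rose by 0.18 units. Acot12, an acetyl-CoA hydrolase of liver, fell by 0.16 units and Them5 fell by 0.10 units. Acot11, Acot13 and Them4 had adjusted p-values of 0.89, 0.19 and 0.66.

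Among 19 other synthetases 2 were called higher, 6 lower and 11 not, and their median difference was -0.02 units. Over all probesets 38.1% were called, 18.9% as higher and 19.3% as lower. The fatty acid transport protein Slc27a1, an acyl-CoA synthetase of muscle and fat, rose by 0.22 units and the mitochondrial Acsf2 by 0.17 units. Acsm3, Acsbg2, Acsm4, Slc27a5, Acsm2 and Slc27a6 fell by 0.21, 0.19, 0.16, 0.12, 0.11 and 0.08 units. All 6 of these, and the thioesterases Acot3, Acot12 and Them5, had means below 7.855 units, the median of all probeset means, so that every gene called lower in these 2 lists had a dim probeset. The same holds for Acot5, Acot4 and Acot10 among the 5 thioesterases called higher, and for the members Acot1 and Acsl5. None of these is tested once dim probesets are left out. The acetate-activating enzymes Acss1 and Acss2 and the transport protein Slc27a4 had adjusted p-values of 0.19, 0.98 and 0.11.

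**Figure D3:**
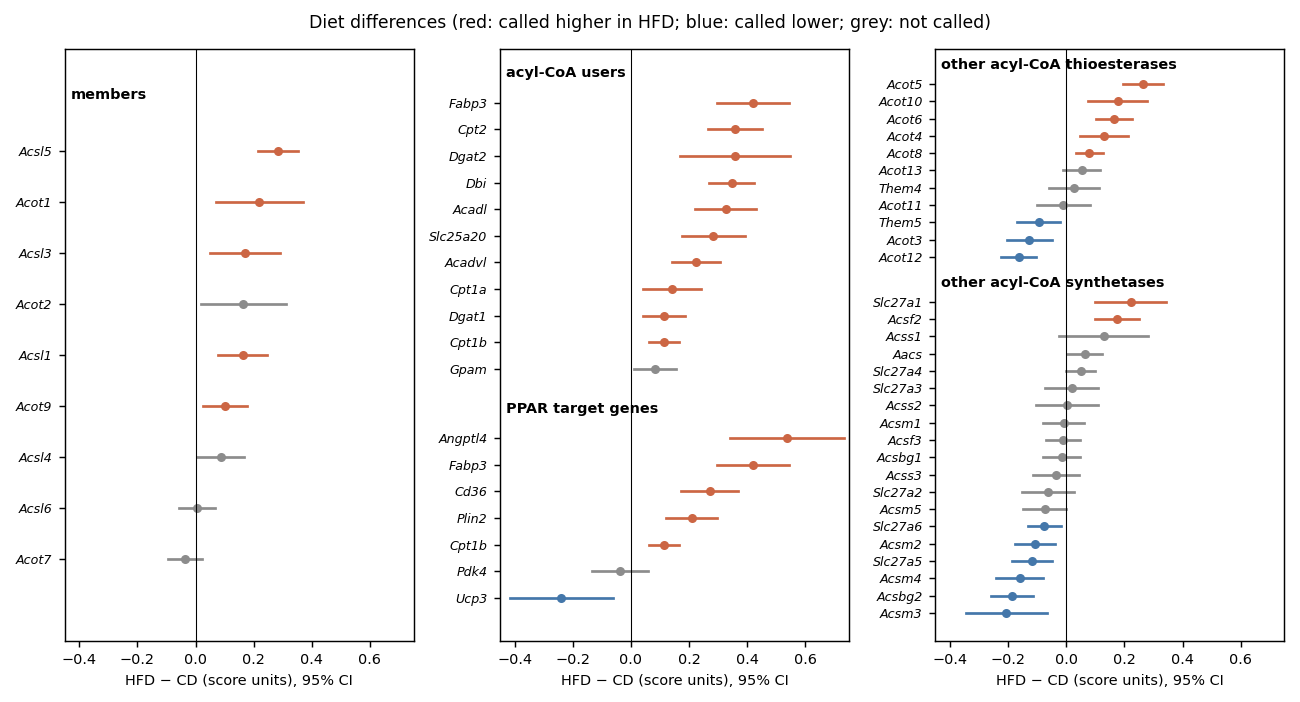
HFD minus CD difference in score units (x axis) with its 95% interval for the members, the acyl-CoA users, the PPAR targets described in the text and the other thioesterases and synthetases (limma, 79 arrays). Red marks genes called higher in HFD, blue lower and grey not called. The users lie to the right of 0 in 11 of 11 genes, whereas the other synthetases lie on both sides, with 2 called higher and 6 lower. Over all probesets 18.9% were called higher and 19.3% lower.

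A further question was whether a strain that expressed a member highly on CD did so on HFD. Acsl3 and Acsl4 passed the test over all probesets, of which 9.53% were called with a positive r. The correlation between diets over 37 strains, after batch means were removed, was r = 0.53 for Acsl3 (Spearman's rho 0.47, two-sided permutation p 0.00078 and 0.0031, adjusted p 0.016 for r). For Acsl4 it was 0.51 (rho 0.53, permutation p 0.0013 and 0.00095, adjusted p 0.024). These are 2 of 9 relations computed, and the median r over all probesets was 0.14.

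Acsl6 fell just short, with r = 0.46 (rho 0.46, permutation p 0.0046 and 0.0048, adjusted p 0.055). Acsl1 and Acot7 had r = 0.38 each (adjusted p 0.15 for both), Acot1 0.34 (0.22), Acsl5 0.29 (0.34), Acot9 0.25 (0.42) and Acot2 0.24 (0.45). Their rho values were 0.43, 0.40, 0.33, 0.30, 0.36 and 0.36, with permutation p-values for r of 0.020, 0.021, 0.039, 0.084, 0.13 and 0.15, and for rho of 0.0081, 0.015, 0.045, 0.068, 0.027 and 0.027, in the same order. All 9 values of r were above 0. Strains did not fall into separate clusters for any member.

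Within strains that had both arrays in the same batch, Acsl3 gave r = 0.58 in batch 1 (n = 12) and 0.58 in batch 2 (n = 17), and Acsl4 gave 0.78 and 0.40. Neither passed in a batch alone. Leaving out the 2 strains farthest from the CD median gave 0.61 for Acsl3, without BXD45 and C57BL/6J. For Acsl4 it gave 0.48, without BXD45 and BXD65, and this value missed the threshold (adjusted p 0.065). The same step gave 0.24 for Acot1, 0.29 for Acot2, 0.25 for Acot7, 0.27 for Acot9, 0.39 for Acsl1, 0.21 for Acsl5 and 0.46 for Acsl6.

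Acot1 and Acot2 had r = 0.64 and 0.75 in batch 1 against 0.28 and -0.09 in batch 2. For Acot7 these values were 0.32 and 0.42, for Acot9 0.21 and 0.30, for Acsl1 0.39 and 0.45, for Acsl5 0.06 and 0.33, and for Acsl6 0.59 and 0.25. The difference between batches was not tested.

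**Figure D4:**
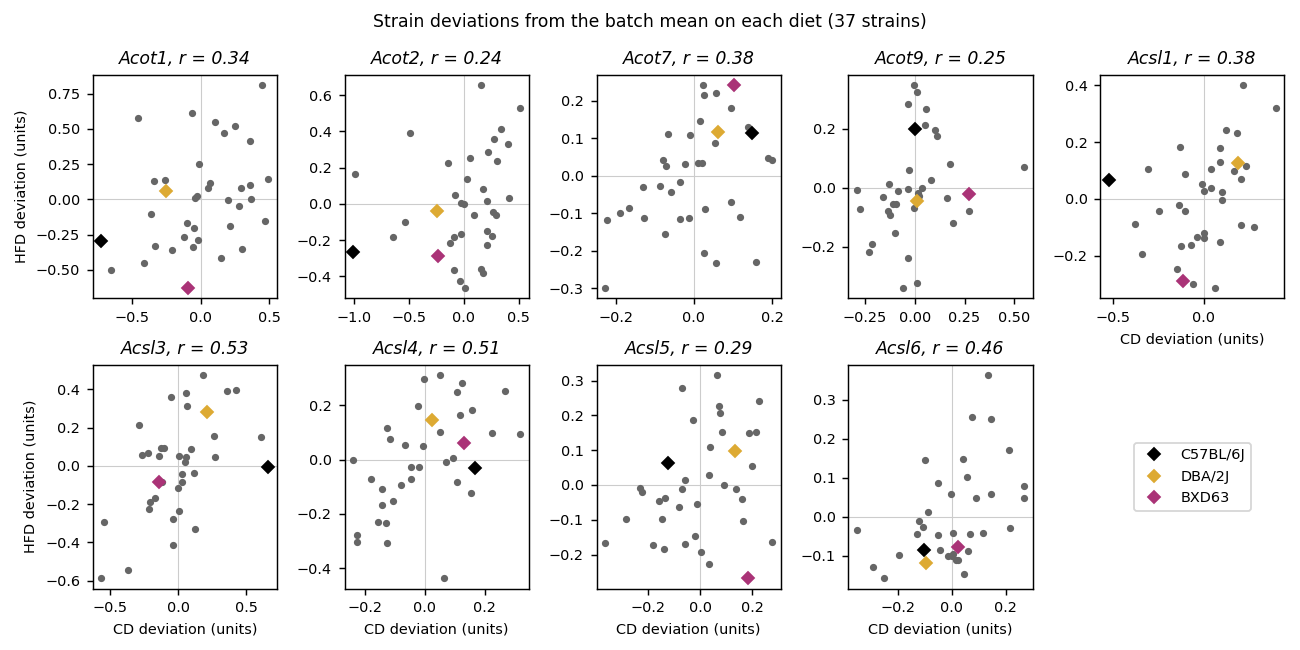
Each strain's deviation from its batch mean on CD (x axis, score units) and on HFD (y axis, score units) for the 9 members, with 37 strains in each panel. C57BL/6J, DBA/2J and BXD63 are marked. Acsl3 and Acsl4 slope upward most clearly (r = 0.53 and 0.51), and C57BL/6J lies far to the left for Acot1, Acot2 and Acsl1 and far to the right for Acsl3.

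The members ranged over 0.43 to 1.52 units between the lowest and highest strain on CD and over 0.52 to 1.44 units on HFD. Acot2 was the most variable on CD at 1.52 units, a nominal 2.87-fold, and Acot1 on HFD at 1.44 units, a nominal 2.72-fold. Acsl3 ranged over 1.25 units on CD and 1.05 on HFD. The SD of Acot2 on CD exceeded that of 89.0% of all probesets and the SD of Acot1 on HFD that of 87.0%, whereas Acot7 on CD stood at 13.2% and Acsl6 on HFD at 13.7%.

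The median range of the 9 members was 0.85 units on CD and 0.72 on HFD. Between the 10th and 90th percentiles, a span that is narrower by construction, it was 0.41 and 0.43 units, with 0.86 units for Acot2 and 0.63 units for Acsl3 on CD. The full range within a diet exceeded the diet differences of the called members, 0.10 to 0.28 units, in each of the 9 genes. A range over single arrays is wide by construction beside a difference of group means, so that strain and diet cannot be ranked by it. With 1 array per strain and diet, these spans also hold the error of single arrays.

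Of the 9 members, 5 are described here as a pair of groups by how they varied together across strains, with no test of the grouping. Acot1 and Acot2 were the closest pair, with r = 0.81 over the 42 CD arrays and 0.84 over the 37 HFD arrays, and Acsl1 went with them (r with Acot1 0.62 and 0.46, with Acot2 0.58 and 0.46), although on HFD in batch 1 alone these were 0.20 and 0.19. Acsl3 and Acsl4 formed the other group, at 0.59 on CD and 0.49 on HFD. Between the groups r was negative on both diets, from -0.28 to -0.49 on CD and from -0.31 to -0.54 on HFD, although in single batches it was 0.02 for Acsl1 with Acsl3 (CD, batch 2) and 0.06 for Acsl1 with Acsl4 (HFD, batch 1). Acot7, Acot9, Acsl5 and Acsl6 had values with any member between -0.25 and 0.24 on CD, and between -0.40 (Acot2 with Acot7) and 0.41 (Acot1 with Acsl6) on HFD.

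Over all 36 pairs the median r was -0.02 on CD and 0.04 on HFD. These values describe arrays that share strains between diets and are given without a test. Without C57BL/6J, Acot1 and Acot2 correlated at 0.78 and 0.84. On CD, leaving out that strain took Acsl1 with Acsl3 from -0.28 to -0.15, Acot2 with Acsl5 from -0.25 to -0.35 and Acot7 with Acsl1 from 0.16 to 0.29. In the batches taken alone Acot1 with Acot2 held between 0.75 and 0.87, while Acsl1 with Acot2 on HFD was 0.67 in batch 2. Acot1 and Acot2 are near relatives in sequence that stand next to each other in the Acot gene cluster of chromosome 12, and how far their probesets bind each other's transcripts was not tested.

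**Figure D5:**
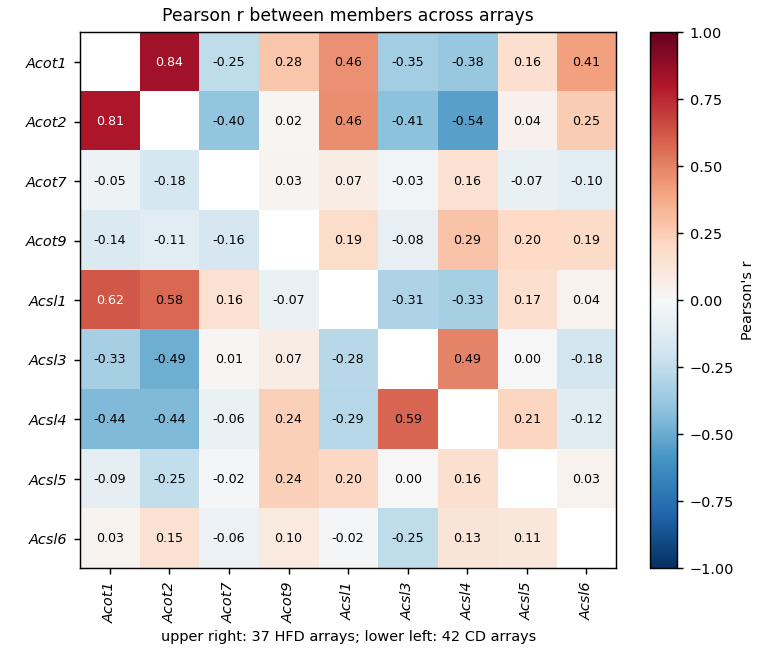
Pearson's r between the scores of each pair of members after batch means were removed, over 42 CD arrays (lower left) and 37 HFD arrays (upper right). Red is positive and blue negative. Acot1, Acot2 and Acsl1 are red with each other and blue with Acsl3 and Acsl4, which are red with each other (0.59 and 0.49).

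Because Acot1, Acot2 and Acsl1 varied together and PPARs bind a known DNA element, the upstream sequence of these 3 genes was set side by side. Each line below gives the 250 bases before the first annotated start in RefSeq (GRCm38.p6), 5′ to 3′ on the strand of the gene. The element bound by PPAR with its partner RXR is a tandem pair of the hexamer AGGTCA with 1 base between. The capitals mark the first stretch found with the fewest mismatches to it, and other stretches can have as few.
Acot1 (GRCm38.p6, chr12:84009252-84009501, + strand): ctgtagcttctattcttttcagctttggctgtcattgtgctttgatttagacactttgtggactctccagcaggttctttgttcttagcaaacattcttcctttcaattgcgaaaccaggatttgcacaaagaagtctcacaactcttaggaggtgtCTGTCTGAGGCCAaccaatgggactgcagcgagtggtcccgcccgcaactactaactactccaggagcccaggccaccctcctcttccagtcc
Acot2 (GRCm38.p6, chr12:83987611-83987860, + strand): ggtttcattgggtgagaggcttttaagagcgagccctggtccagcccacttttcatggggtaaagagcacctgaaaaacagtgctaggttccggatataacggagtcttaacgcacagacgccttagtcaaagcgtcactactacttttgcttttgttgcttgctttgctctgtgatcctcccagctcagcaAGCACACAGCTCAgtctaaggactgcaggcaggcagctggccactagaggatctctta
Acsl1 (GRCm38.p6, chr8:46470787-46471036, + strand): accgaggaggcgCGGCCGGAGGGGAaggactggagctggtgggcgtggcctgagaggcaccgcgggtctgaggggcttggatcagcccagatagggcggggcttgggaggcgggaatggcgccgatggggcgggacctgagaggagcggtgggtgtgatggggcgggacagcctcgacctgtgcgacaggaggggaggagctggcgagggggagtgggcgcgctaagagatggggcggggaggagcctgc
The marked stretch had 4 mismatches of 12 fixed bases in Acot1, 3 in Acot2 and 5 in Acsl1. A later annotated start of Acsl1, not printed here, had a stretch with 4 mismatches shortly after it. The upstream sequences of Acot1 and Acot2 were not near copies of each other, with 65 of 250 positions identical when laid side by side without gaps and a longest shared run of 9 bases.

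Both strands of the promoter windows, from 250 bases before to 50 after the start, were searched in all 9 members. Of their 12 windows 0 held the tandem pair with at most 2 mismatches, beside 3.86% of 32851 RefSeq windows. The hexamer itself was found in the window of 1 of the 3 starts of Acsl6, which held 2 copies, and in 16.3% of all windows. A match or its absence in so short a window describes the letters alone.

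The genes whose pattern was most like each member, by r over 79 arrays with diet and batch means removed, differed between the groups. Acot2 was closest to Pdk4 (r = 0.86) and then to Acot1 (0.81), and Acot1 to Acot2 and to Slc25a22, a mitochondrial glutamate carrier (0.74). Acsl1 was closest to Lpl, lipoprotein lipase (0.84), and to Nceh1, a cholesteryl ester hydrolase (0.83). Acsl4 was closest to Fundc1, a mitochondrial outer membrane protein (0.75), and Naa15, a subunit of the N-terminal acetyltransferase NatA (0.72).

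Acsl5 was closest to Dock11 (0.73) and Aida (0.73), and Acsl3 to Nek9, a mitotic kinase (0.64), and 4930430F08Rik (0.60). Of the 2 genes most like Acsl6, the cold-inducible RNA-binding protein Cirbp had r = 0.61. Acot9 was closest to Xpnpep1 (0.59) and Mrps33 (0.58), and Acot7 to Med22 (0.51) and Ube2v1 (0.50). Within the diets, Acot2 and Pdk4 correlated at 0.90 on CD and 0.79 on HFD, and Acsl1 and Lpl at 0.84 and 0.85.

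The PPAR target list divided Acot1, Acot2 and Acsl1 from Acsl3 and Acsl4 by sign. These groups were taken from the same arrays, where r between them was negative, so that opposite signs with a list are partly built in. So did the slow fibre, fast fibre (with signs turned), Schwann cell and endothelial marker means and the median r with the acyl-CoA users. The part of tissue composition in these values was not tested. Over the 8 targets the median r was 0.56 with Acot1, 0.56 with Acot2 and 0.49 with Acsl1, and each of the 8 values was above 0 for all 3 genes. With Acsl3 the median was -0.36 and with Acsl4 -0.31, and each of the 8 values was below 0. Acot7, Acot9 and Acsl6 had medians of -0.08, 0.10 and 0.10, and Acsl5 one of 0.25. With the 11 acyl-CoA users the medians were 0.65 for Acsl1, 0.38 for Acot1 and 0.26 for Acot2, against -0.18 for Acsl3 and -0.09 for Acsl4. As with the pairs, these are descriptions over arrays that share strains and tissue composition.

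The parents were compared to see whether the founder genomes set a member apart. Of the 9 members 0 were called between C57BL/6J and DBA/2J, while 1.26% of all probesets were (447 probesets, limma, over the 37 strains with both diets), and 1 of the 9 had an unadjusted p below 0.05. That was Acsl1, at 12.40 and 13.19 units in C57BL/6J on CD and HFD against 13.12 and 13.25 in DBA/2J, a difference of -0.39 units (SE 0.15, p 0.012, adjusted p 0.31). Acot2 differed by -0.49 units (SE 0.27, adjusted p 0.71) and Acot1 by -0.41 units (SE 0.25, adjusted p 0.78), and the other 6 by -0.15 to 0.12 units. Each parent had 1 array per diet, and the spread was borrowed from all strains. From the 4 parental arrays alone 4 probesets were called.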

How the data were processed

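Quadriceps RNA was pooled by strain and diet and hybridised to Affymetrix Mouse Gene 1.0 ST arrays. The submitters' processing notes name Affymetrix Expression Console, with no version. The deposited values were scores per probeset, scaled by the authors to a mean of 8.0 and an SD of 2.0 on each array. The log base, summarization, genome build and any correction for batch were not given in the sources used here. The scores were used as deposited, without counting depth, so that the number of arrays limits the precision. The tests had been planned for log-scale values and were run on the scores. The chow column headed BXD92 was read as BXD92a, the title it matched.

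Where a gene had several probesets, the brightest was used, and each member had 1. Diet was fitted with limma 3.58.1 (lmFit and eBayes, R 4.3.3), with diet and batch as terms over 79 arrays and Benjamini-Hochberg adjustment over 35556 probesets at a threshold of 0.05. Student's t-test, which the study's methods name, was an alternative. The parents were compared in a fit of strain, diet and batch. Cross-diet r was taken over 37 strains after batch means were removed within each diet, with 100000 permutations for r and rho, and adjusted over all probesets by a test of r with 33 degrees of freedom. Strains counted as separate clusters where Ashman's D was over 2 and the BIC dropped by 10 or more for 2 normal components. The fits were tested on simulated data. Correlations were computed in Python 3.11.15 with scipy 1.17.1 and numpy 2.4.6, clusters with scikit-learn 1.9.0, tables with pandas 2.3.3 and figures with matplotlib 3.10.9.

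The strain named in the titles pairs arrays. Deviations from the batch means of each diet correlated between the arrays of a strain at a median of 0.21 (from -0.13 to 0.39), and over 0.1 in 33 of 37 strains.

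Members and lists were chosen with earlier results of these data known. The text names the 9 members, every called gene and up to 3 others of the 4 pathway lists (other thioesterases, other synthetases, acyl-CoA users and PPAR targets), the 2 genes most like each member, and Adipoq and Lep. Other markers and strains were named after their values were seen. A PPAR target and a gene most like Acsl6 count in the totals, and their own values are not reported here. Promoter windows came from RefSeq (GRCm38.p6) and held all 9 members. The alternatives covered batch, strains, normalization, test, dim probesets and marker covariates.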

Additional observations from a re-analysis of the deposited data

How the results depend on the processing

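Counts of calls moved most where arrays or probesets were removed. The diet comparison called 13551 probesets, and 4491 in batch 1 alone, 8691 in batch 2 alone and 5292 with probesets below the median mean removed. Members called higher numbered 5 and went to 2, 1 and 3 under the same 3 settings, and Acot1 and Acsl5 were among the probesets removed as dim. Other thioesterases called went from 8 to 3, 5 and 2, and other synthetases from 8 to 3, 3 and 2. With the macrophage marker mean as a covariate, chosen after seeing the data, they were 5 and 4. Members with cross-diet r past the threshold went from 2 to 0 in either batch alone and to 1 without the 2 farthest strains, and were 3 with batch means not removed or after quantile normalization, where Acsl6 joined (adjusted p 0.044 and 0.013). The median strain range was 0.41 units on CD and 0.43 on HFD between the 10th and 90th percentiles.

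Signs turned in Acsl6, whose diet difference was -0.0040 units under the replicate block of strains, -0.0059 among those 37 strains with no strain term, -0.014 after quantile normalization and between -0.0024 and 0.011 when each strain was left out, below 0 without BXD50, BXD51, BXD79 or BXD97, and in the cross-diet r of Acot2 (-0.094 in batch 2 alone). Leaving out each strain in turn gave 13109 to 14074 diet calls, 5 or 6 members higher and 0 lower, 7 to 8 other thioesterases, 7 to 9 other synthetases, 10 to 11 acyl-CoA users and 5 to 7 PPAR targets. Acot2 entered without BXD70 or BXD75, and Acsl4 without BXD71 (adjusted p 0.040) or BXD95 (0.048). The paired fit with the replicate block, in the 37 strains with both diets, changed the call of Acsl4 and of no other member. The same strains without the block, a setting chosen after seeing the data, changed no member's call. The parental comparison called 0 members under its 3 alternatives. Of the relations among members, 3 moved by at least 0.1 without C57BL/6J, and 2 of these were of Acsl1 on CD. The mean of all probesets of a gene was not run for r and ranges, since each member has 1 probeset. The lower counts in single batches come with fewer arrays, and no other cause was tested.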
